A study of Homo sapiens with 4 samples.

Results

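The genes described here are the protein-coding collagens, laminin chains and integrin subunits, together with fibronectin (FN1), vimentin (VIM) and SPARC. They were picked by gene symbol in the GENCODE annotation and joined by Ensembl identifier, with no use of the measured values. The rule gave 85 genes of the 64252 in the count table, of which 19550 are protein-coding. These were 44 collagens, 12 laminins, 26 integrins and the 3 other genes. The cells were SK-N-BE(2), a line from a human neuroblastoma with MYCN amplification, and were sequenced by RNA-seq carrying either scrambled shRNA (sh-Scb, the control group) or shRNA against SAPCD2 (sh-SAPCD2), with 2 libraries per group. According to the study's methods, shRNAs were delivered by lentivirus and stable cells were selected with puromycin, so both groups carry a vector and went through selection. The study designed more than 1 shRNA against SAPCD2, and the labels do not say which of them these libraries carry. Nor do they say that the libraries of a group came from separate cultures, so p-values measure the spread between these libraries, which may be technical.

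Collagens are triple helices of chains that can be alike or different. Some form fibrils, some form the networks of basement membranes, some sit on fibrils and some span the plasma membrane. Laminins are cross-shaped trimers of an alpha, a beta and a gamma chain that, with collagen IV, make up basement membranes. Integrins are pairs of an alpha and a beta subunit at the cell surface that bind collagens, laminins or proteins with an RGD sequence such as fibronectin. Vimentin is an intermediate filament of the cytoplasm and is widely used as a mesenchymal marker. SPARC is a secreted collagen-binding protein. In neuroblastoma, collagen and integrin expression is known to differ between adrenergic and mesenchymal cell states.

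Total counts were 27423014 and 27430468 for the control libraries and 25347900 and 31850997 for the sh-SAPCD2 libraries, and 3 counts, taken as the smallest detectable amount, equaled 0.0942 to 0.118 CPM, the count scaled to a common library size. SAPCD2 itself measured 83.6 and 82.2 CPM in the control libraries and 35.4 and 52.5 CPM in the sh-SAPCD2 libraries, so the groups did not overlap. Its level was lower in SAPCD2-knockdown cells, with a log2 fold change of −0.91 ± 0.19 (SE, adjusted p = 0.0206), and the first sh-SAPCD2 library was at 42.7% and the second at 63.3% of the control mean. Of its exonic length, 23.1% overlaps other genes. Without the filter on low counts, its adjusted p was 0.0749. The sh-SAPCD2 libraries also differed from each other with GC content. This was read in tested genes with a mean of at least 1 CPM and counts in every library. At a transcript GC content of 55 to 65%, the median log2 ratio of the second to the first sh-SAPCD2 library was 0.32. Over 65% it was 0.61, and below 45% it was −0.22. The same medians for the control libraries lay between −0.02 and 0.01. Most of the collagens described below have GC-rich transcripts, so the log2 fold change of each of the 85 genes that passed is also given after a correction of every library for GC content and length. The SAPCD2 transcript has a GC content of 66.5%. After the correction its log2 fold change was −1.31 (edgeR adjusted p = 4.2e-05).

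Of the 85 genes, 54 passed the filter on low counts and were tested. Many collagens rose, among them 3 chains of collagen VI, the laminin alpha chains LAMA3 and LAMA4 fell, and of the integrins the alpha subunits ITGA11 and ITGA3 rose. At an absolute log2 fold change over 1 and an adjusted p under 0.05, 9 genes were higher in SAPCD2-knockdown cells, against 4.69% of all tested genes, and 4 were lower, against 5.15%. At an adjusted p under 0.05 alone, 15 were higher, where 12.4% of all tested genes were, and 5 were lower, where 12.5% were. As shares of the 54 tested genes these were 16.7%, 7.41%, 27.8% and 9.26%. The other 34 did not pass. Without the first sh-SAPCD2 library, 14 genes were called higher under the stricter rule and 5 lower, and at an adjusted p alone 19 were higher and 8 lower. By family, 11 of 25 tested collagens were higher and 1 was lower, 1 of 9 laminins was higher and 2 were lower, and 2 of 17 integrins were higher and none lower at an adjusted p under 0.05. The median log2 fold change was 0.59 for collagens, 0.04 for laminins and 0.29 for integrins, compared with 0.02 over all tested genes. Since genes that are low in both groups were left out, these counts describe the tested genes and not the whole families.

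**Figure D1:**
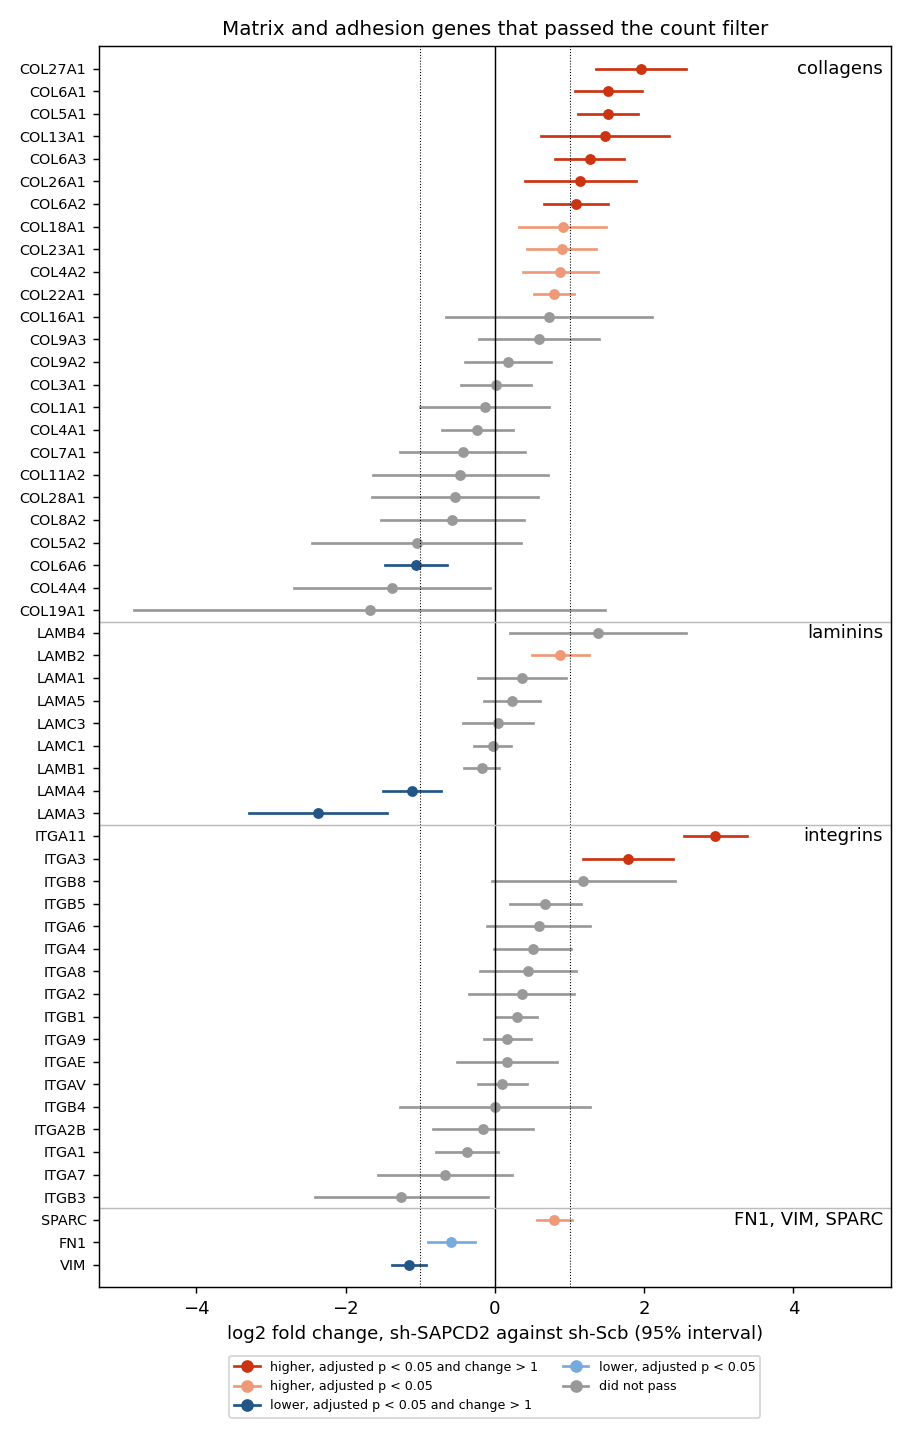
Log2 fold change of sh-SAPCD2 against sh-Scb on the x axis for the 54 tested genes, grouped by family and ordered by size, with points for estimates and lines for 95% intervals from 2 libraries per group. Dotted lines mark an absolute change of 1, and ITGA11 (2.95) and LAMA3 (−2.37) lie farthest from 0 among genes with an adjusted p under 0.05.

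The 31 genes that were not tested had at most 28 counts in any library. They comprised 19 collagens, 3 laminins and 9 integrins. Of these, 5 had no count in any library (COL5A3, COL15A1, COL20A1, ITGAM and ITGAX) and 11 stayed under 3 counts in all 4. The alpha-2 chain of collagen I, COL1A2, had 0 and 6 counts in the control libraries and 0 in both sh-SAPCD2 libraries, while its partner COL1A1 had 54 to 134 counts. LAMB3, which joins LAMA3 in a laminin of epithelial basement membranes, had 8 to 12 counts. The fibronectin receptor subunit ITGA5 had 6 and 9 counts in the control libraries and 28 and 6 in the sh-SAPCD2 libraries. Differences in these genes were not tested with this filter.

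Levels can be compared between genes per length, as TPM, in which counts are divided by the merged exon length of each gene and scaled to a common sum. The highest level was that of VIM, at 528.6 TPM over the 4 libraries. SPARC followed at 96.6 TPM, LAMC1 at 90.3 TPM, ITGB1 at 89.6 TPM, LAMB1 at 59.2 TPM and COL6A1 at 57.5 TPM. These levels depend on the length used: with the length of the canonical transcript, ITGB1 was at 224.0 TPM, LAMB1 at 125.0 TPM and LAMC1 at 61.7 TPM. The cells thus had much RNA for the laminin beta-1 and gamma-1 chains and for integrin beta-1, and for collagen VI among the collagens. Summed over the family, collagens were at 124.7 and 119.4 TPM in the control libraries and at 207.1 and 273.8 TPM in the sh-SAPCD2 libraries. The integrin sums were 131.2 and 131.6 TPM against 177.3 and 155.7 TPM. The laminin sums were 192.1 and 186.6 TPM against 189.8 and 182.7 TPM. The groups did not overlap for the collagen and integrin sums and overlapped for the laminin sum. Of the integrin sums, ITGB1, which did not pass, made up 80.8 and 79.6 TPM against 107.5 and 90.6 TPM.

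**Figure D2:**
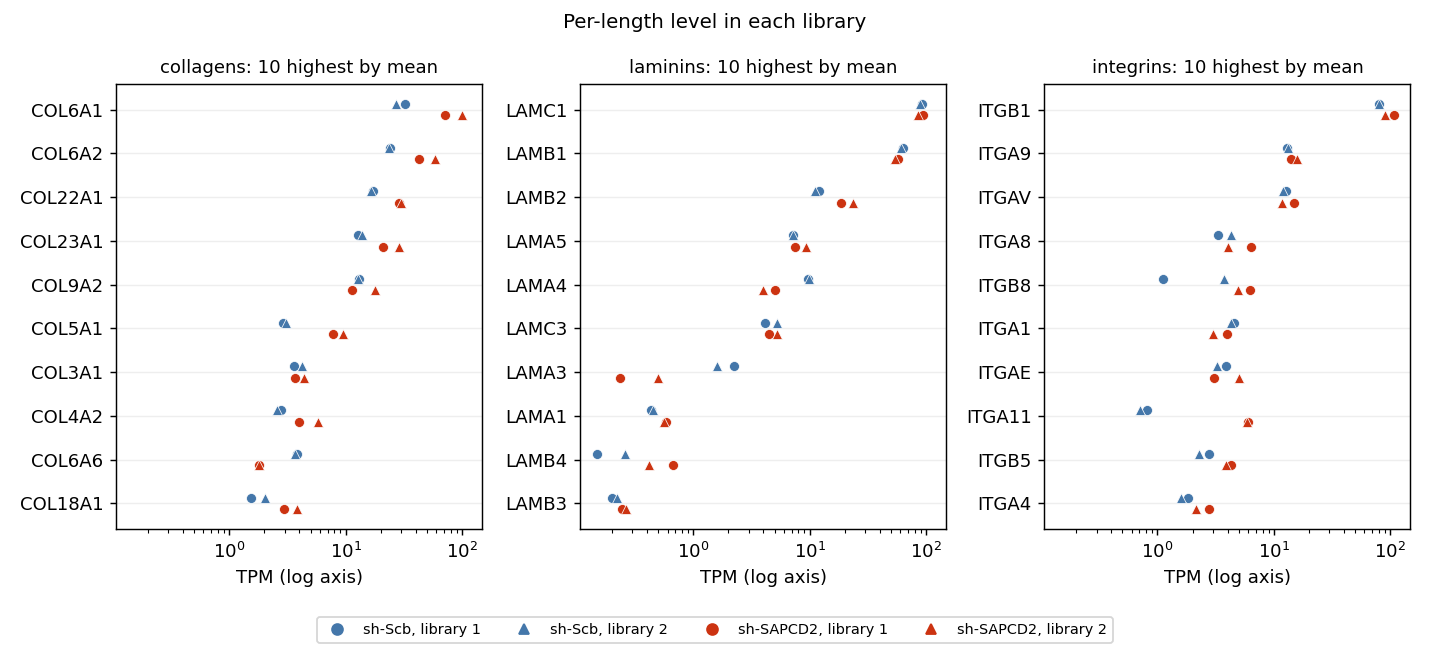
TPM on a log axis for the 10 highest collagens, laminins and integrins by mean level, with 1 symbol per library (blue, sh-Scb; red, sh-SAPCD2; circle, library 1; triangle, library 2). COL6A1 and COL6A2 lie to the right in both sh-SAPCD2 libraries, the 4 libraries nearly coincide for LAMC1 and LAMB1, and control library 1 is low for ITGB8.

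COL4A1 and COL4A2 stand head to head on chromosome 13, so that their start sites share a promoter region, and only COL4A2 passed the test. The promoter window of COL4A2 (RefSeq, GRCh38.p14, chr13:110307034-110307333, plus strand) is printed because it holds both start sites: the COL4A2 start lies at 110307284, and the COL4A1 start, read in the other direction, lies at 110307157. Capitals mark the CCAAT letters.
COL4A2: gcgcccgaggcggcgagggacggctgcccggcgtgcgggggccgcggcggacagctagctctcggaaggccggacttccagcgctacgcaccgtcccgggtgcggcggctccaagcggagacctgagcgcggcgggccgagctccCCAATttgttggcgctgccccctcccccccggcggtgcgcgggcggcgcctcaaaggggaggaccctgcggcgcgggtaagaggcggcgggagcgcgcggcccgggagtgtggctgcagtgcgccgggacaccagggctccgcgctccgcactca
The window of LAMA3, the laminin chain that fell most, is printed because, of the 17 changed genes with a window, it was the 1 gene whose window holds the AP-1 letters TGACTCA (chr18:23872770-23873069, plus strand). Its start site at 23873020 lies inside the GENCODE gene, which begins at 23689453. Capitals mark the matches, the second of which is TGAGTCA, the same motif on the other strand.
LAMA3: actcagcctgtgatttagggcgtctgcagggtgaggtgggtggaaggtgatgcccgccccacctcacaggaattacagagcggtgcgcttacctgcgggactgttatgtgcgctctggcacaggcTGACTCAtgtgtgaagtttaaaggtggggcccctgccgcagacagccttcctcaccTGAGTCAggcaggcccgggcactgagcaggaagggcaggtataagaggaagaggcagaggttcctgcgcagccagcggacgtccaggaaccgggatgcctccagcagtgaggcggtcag
Of the 85 genes, 61 had windows of 250 bases before to 50 bases after a start in the RefSeq table. AP-1 letters were found, on either strand, in 3 of these (4.92%), compared with 6.05% of the windows of all 27305 genes there. CCAAT was in 19 (31.1%, compared with 39.7%), the GC box GGGCGG in 37 (60.7%, compared with 48.3%) and the E2F letters TTTCCCGC or TTTGGCGC in 1 (1.64%, compared with 2.75%). None of the 17 changed genes had the E2F letters in its window. A match is a description of these windows and not a bound site.

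Collagen VI, which forms beaded filaments in the matrix around many cells, was the collagen with the most RNA. COL6A1 (ENSG00000142156, chromosome 21, 45981770 to 46005050, plus strand) was at 55.8 and 47.5 CPM in the control libraries and at 123 and 173 CPM in the sh-SAPCD2 libraries, a 2.87-fold rise (log2 fold change 1.52 ± 0.19 SE, adjusted p = 0.00487). COL6A2 (ENSG00000142173, chromosome 21, 46098112 to 46132848, plus strand) was at 39.9 and 39.8 CPM against 70.6 and 98.5 CPM (1.09 ± 0.17, adjusted p = 0.00966). Both genes were higher in each sh-SAPCD2 library than in either control library, and both were higher in the second sh-SAPCD2 library than in the first. COL6A3 (ENSG00000163359, chromosome 2, 237324003 to 237414328, minus strand), the third of the common chains, went from 3.40 and 3.78 CPM to 8.65 and 8.69 CPM (1.27 ± 0.19, adjusted p = 0.00774), and its sh-SAPCD2 libraries were nearly equal. After the GC content and length correction, the log2 fold changes were 1.21 for COL6A1, 0.68 for COL6A2 and 1.23 for COL6A3, and each still had an adjusted p under 0.05, with COL6A2 no longer over the log2 fold change of 1.

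COL6A6 (ENSG00000206384, chromosome 3, 130517177 to 130677044, plus strand), a chain related to COL6A3, moved the other way. It was at 10.5 and 10.4 CPM in the control libraries and at 4.98 and 5.06 CPM in the sh-SAPCD2 libraries, which is 2.08-fold lower (log2 fold change −1.06 ± 0.17, adjusted p = 0.00985, −1.01 after the same correction). Per length, COL6A6 exceeded COL6A3 by 7.52 and 6.70 times in the control libraries and by 1.40 and 1.42 times in the sh-SAPCD2 libraries. Which chain was higher in the sh-SAPCD2 libraries depended on the length used: with the canonical transcripts, COL6A6 was at 3.74 and 3.33 times COL6A3 in the control libraries and at 0.697 and 0.706 times in the sh-SAPCD2 libraries. The ratio of COL6A1 to COL6A2 was 1.35 and 1.15 in the control libraries and 1.68 and 1.69 in the sh-SAPCD2 libraries. With 2 libraries per group, an exact permutation test cannot reach p = 0.05, and these ratios were not tested. COL6A5, a further related chain, had at most 7 counts.

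Among the fibrillar collagens, COL5A1 and COL27A1 rose, and 4 others did not pass. COL5A1 (ENSG00000130635, chromosome 9, 134641803 to 134844843, plus strand), which sets the diameter of collagen fibrils, was at 10.2 and 11.01 CPM in the control libraries and at 27.0 and 33.7 CPM in the sh-SAPCD2 libraries (log2 fold change 1.51 ± 0.17, adjusted p = 0.00389). COL27A1 (ENSG00000196739, chromosome 9, 114155537 to 114312511, plus strand), known from cartilage, rose 3.89-fold from 1.81 and 1.35 CPM to 6.24 and 6.05 CPM (1.96 ± 0.25, adjusted p = 0.00544). For both genes the groups were well apart, and the corrected log2 fold changes were 1.31 and 1.75. COL5A2, the usual partner of COL5A1, was at 2.79 and 1.78 CPM against 1.74 and 0.510 CPM (−1.05 ± 0.58, adjusted p = 0.229), with no rise in either sh-SAPCD2 library. The estimate for COL5A2 was −2.16 (adjusted p = 0.0194) without the first sh-SAPCD2 library and −0.39 without the second. COL3A1 was at 7.71 and 9.09 CPM against 7.70 and 9.27 CPM, and COL1A1 at 3.37 and 3.71 CPM against 2.13 and 4.27 CPM, and the groups overlapped for each. The 95% interval of the log2 fold change was −0.452 to 0.485 for COL3A1 and −0.998 to 0.729 for COL1A1. COL5A1 lay below COL3A1 per length in both control libraries, at ratios of 0.805 and 0.734, and above it in both sh-SAPCD2 libraries, at 2.124 and 2.202.

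The chains of collagen IV, the network collagen of basement membranes, parted. COL4A2 (ENSG00000134871, chromosome 13, 110305812 to 110513209, plus strand) rose from 16.8 and 15.7 CPM to 24.1 and 35.4 CPM (log2 fold change 0.88 ± 0.21, adjusted p = 0.0289). COL4A1 (ENSG00000187498, chromosome 13, 110148963 to 110307157, minus strand), which shares the promoter region printed above, was at 9.74 and 8.03 CPM against 8.18 and 6.91 CPM (−0.24 ± 0.20, adjusted p = 0.412). Its groups overlapped, and the 95% interval of −0.71 to 0.24 holds no rise as large as the estimate for COL4A2. The ratio of COL4A2 to COL4A1 per length went from 1.31 and 1.49 in the control libraries to 2.24 and 3.90 in the sh-SAPCD2 libraries. The difference between the chains was not tested. After the GC content and length correction, COL4A2 was at 0.63 and COL4A1 at −0.32 on the log2 scale. COL4A4 had 5 to 20 counts and an adjusted p of 0.114, and COL4A3, COL4A5 and COL4A6 had at most 7 counts.

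Of the collagens that span the plasma membrane, both tested genes rose. COL23A1 (ENSG00000050767, chromosome 5, 178237476 to 178590393, minus strand) was among the highest collagens per length and went from 17.6 and 19.1 CPM to 28.5 and 39.7 CPM (log2 fold change 0.90 ± 0.19, adjusted p = 0.0211). COL13A1 (ENSG00000197467, chromosome 10, 69801880 to 69964275, plus strand), which is needed at the neuromuscular junction, was low, with 15 and 21 counts in the control libraries and 48 and 55 counts in the sh-SAPCD2 libraries (1.47 ± 0.35, adjusted p = 0.0299). Neither gene's groups overlapped, although the call for COL13A1 rests on few counts and was lost with DESeq2 (adjusted p = 0.0686). The corrected values were 0.53 for COL23A1 and 1.31 for COL13A1. Among the fibril-associated collagens, COL22A1 (ENSG00000169436, chromosome 8, 138588235 to 138914041, minus strand), known from tissue junctions such as that of muscle and tendon, rose from 42.7 and 41.1 CPM to 70.7 and 74.0 CPM (0.79 ± 0.11, adjusted p = 0.00648, 0.62 after correction). COL9A2, a cartilage chain among the 5 highest collagens per length, was at 17.1 and 17.3 CPM against 14.8 and 23.9 CPM, and the sh-SAPCD2 libraries lay on either side of the control group (0.17 ± 0.24, adjusted p = 0.628).

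COL18A1 (ENSG00000182871, chromosome 21, 45405165 to 45513720, plus strand), a basement membrane collagen whose end fragment is endostatin, rose from 4.09 and 5.52 CPM to 7.86 and 10.2 CPM (log2 fold change 0.91 ± 0.24, adjusted p = 0.0391). Of its exonic length, 18.5% overlaps another gene, and reads there cannot be assigned with certainty. COL26A1 (ENSG00000160963, chromosome 7, 101362875 to 101559024, plus strand) had 27 and 30 counts in the control libraries and 51 and 80 counts in the sh-SAPCD2 libraries (1.14 ± 0.31, adjusted p = 0.0410). These were the 2 genes that no longer had an adjusted p under 0.05 after correction for GC content and length, at 0.49 (adjusted p = 0.0941) for COL18A1 and 0.85 (adjusted p = 0.0583) for COL26A1. The DESeq2 adjusted p of COL26A1 was 0.110. The other tested collagens, which were COL4A4, COL7A1, COL8A2, COL9A3, COL11A2, COL16A1, COL19A1 and COL28A1, had log2 fold changes from −1.68 to 0.72 and did not pass.

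**Figure D3:**
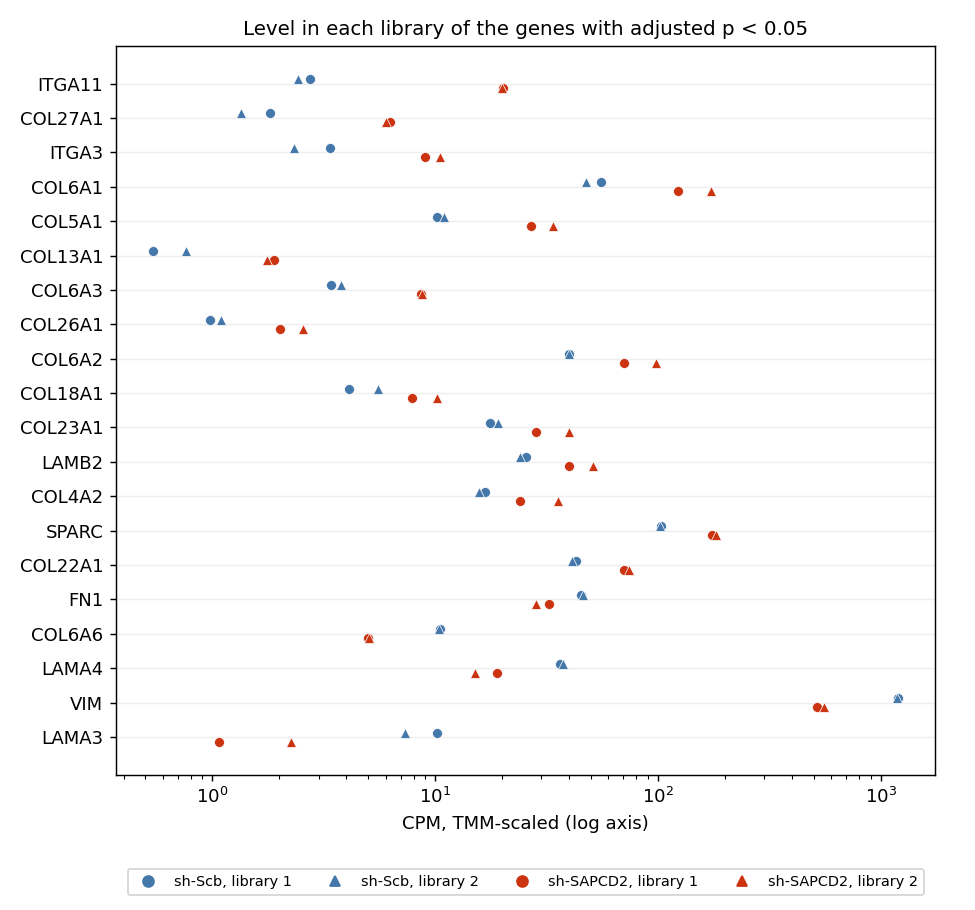
CPM on a log axis in each library for the 20 genes with an adjusted p under 0.05, ordered by fold change (blue, sh-Scb; red, sh-SAPCD2; circle, library 1; triangle, library 2). The groups do not overlap for any of these genes, and ITGA11 shows the widest gap. The genes were picked by adjusted p from these same libraries, so the lack of overlap adds no support. Nor did the groups overlap for 18 of the 34 tested genes of these families that did not pass. The share over all tested genes was not computed.

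Laminin alpha chains decide which receptors a laminin binds, and 2 of the 4 tested fell. LAMA4 (ENSG00000112769, chromosome 6, 112107931 to 112254939, minus strand), known from vessel walls and peripheral nerve, was at 36.2 and 37.4 CPM in the control libraries and at 19.0 and 15.1 CPM in the sh-SAPCD2 libraries, which is 2.16-fold lower (log2 fold change −1.11 ± 0.16, adjusted p = 0.00682). LAMA3 (ENSG00000053747, chromosome 18, 23689453 to 23956222, plus strand), known from epithelia, dropped from 10.2 and 7.31 CPM to 1.07 and 2.26 CPM, which is 5.18-fold lower (−2.37 ± 0.38, adjusted p = 0.00958). Both sh-SAPCD2 libraries lay below both control libraries for each chain, and the log2 fold changes were −1.04 and −2.36 with the GC content and length correction. The LAMA3 value was −1.96 without the first sh-SAPCD2 library and −3.03 without the second, and it passed in both fits. LAMA5, the alpha chain of most adult basement membranes, was at 32.2 and 32.4 CPM against 33.2 and 42.2 CPM (0.23 ± 0.15, adjusted p = 0.325). Per length, LAMA4 exceeded LAMA5 in the control libraries, at ratios of 1.34 and 1.38, and was below it in the sh-SAPCD2 libraries, at 0.683 and 0.426. These ratios are not corrected for GC content, which is 45.1% for the LAMA4 transcript and 66.4% for that of LAMA5. With the correction, the LAMA5 log2 fold change was −0.13. LAMA1 was at 2.14 and 2.29 CPM against 2.88 and 2.80 CPM (adjusted p = 0.318).

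Of the 5 tested beta and gamma chains, LAMB2 passed. LAMB2 (ENSG00000172037, chromosome 3, 49121114 to 49133118, minus strand), found at synapses and in the kidney filter, rose from 25.7 and 24.0 CPM to 40.1 and 51.0 CPM (log2 fold change 0.88 ± 0.16, adjusted p = 0.0131, 0.66 after correction). LAMB1, the more abundant beta chain, was at 372 and 363 CPM against 336 and 313 CPM (−0.18 ± 0.09, adjusted p = 0.216), and the ratio of LAMB2 to LAMB1 per length went from 0.187 and 0.180 to 0.323 and 0.441. LAMC1, the gamma chain of most laminins, was at 245 and 241 CPM against 249 and 226 CPM, with a 95% interval of −0.27 to 0.21 for its log2 fold change. LAMC3 was at 11.6 and 14.8 CPM in the control libraries and at 12.4 and 14.8 CPM in the sh-SAPCD2 libraries. LAMB4 had 9 and 16 counts against 37 and 29 counts (1.38 ± 0.48, adjusted p = 0.0870) and did not pass.

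ITGA11 (ENSG00000137809, chromosome 15, 68296532 to 68432163, minus strand), an alpha subunit that pairs with integrin beta-1 to bind fibrillar collagen, changed most of all 54 tested genes among those that passed. It was at 2.75 and 2.44 CPM in the control libraries (76 and 67 counts) and at 20.2 and 20.1 CPM in the sh-SAPCD2 libraries (511 and 630 counts). This was a 7.75-fold rise (log2 fold change 2.95 ± 0.17, 95% interval 2.53 to 3.38, adjusted p = 0.00201), and the libraries of each group were nearly equal. The GC content and length correction left it at 2.97. ITGA1, another collagen-binding alpha subunit, was at 26.4 and 25.3 CPM against 22.7 and 17.4 CPM (−0.37 ± 0.17, adjusted p = 0.160), and ITGA2 was at 2.53 and 2.40 CPM against 3.83 and 2.52 CPM (adjusted p = 0.406). The ratio of ITGA11 to ITGA1 per length was 0.178 and 0.164 in the control libraries and 1.52 and 1.97 in the sh-SAPCD2 libraries. With the canonical transcript lengths it was 0.110 and 0.101 against 0.936 and 1.22, so the order of the subunits in the first sh-SAPCD2 library depended on the length used.

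ITGA3 (ENSG00000005884, chromosome 17, 50055968 to 50090481, plus strand), a laminin-binding alpha subunit, rose 3.44-fold from 3.37 and 2.33 CPM to 9.05 and 10.5 CPM (log2 fold change 1.78 ± 0.25, adjusted p = 0.00632, 1.56 after the GC content and length correction). ITGA6, which binds laminins too, was at 1.56 and 1.53 CPM against 2.61 and 2.04 CPM, and ITGA7 at 1.01 and 1.13 CPM against 0.711 and 0.637 CPM, with adjusted p = 0.183 and 0.234. The groups did not overlap for either, but the differences did not pass.

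The beta subunits are shared by many alpha subunits, and none of the 5 tested passed. ITGB1, the partner of ITGA11 and ITGA3, was at 369 and 369 CPM in the control libraries and at 488 and 415 CPM in the sh-SAPCD2 libraries (log2 fold change 0.29 ± 0.11, adjusted p = 0.106). It passed after the GC content and length correction, at 0.41 (adjusted p = 0.00152). Per length, ITGA11 was at 0.00999 and 0.00884 of ITGB1 in the control libraries and at 0.0554 and 0.0647 in the sh-SAPCD2 libraries. ITGB5, a vitronectin receptor subunit, was at 5.68 and 4.69 CPM against 8.65 and 7.93 CPM (0.68 ± 0.20, adjusted p = 0.0526), and passed after that correction (0.62, adjusted p = 0.0362). ITGB8, which takes part in TGF-beta activation, was at 5.29 and 17.9 CPM against 29.3 and 23.5 CPM. The first control library was far below the second, and the difference did not pass (1.18 ± 0.50, adjusted p = 0.138). Without the second control library the estimate was 2.32, and without the first it was 0.56. ITGB3 had 58 and 44 counts against 11 and 34 counts (adjusted p = 0.105), and 33.2% of its exonic length overlaps other genes. ITGB4 had 12 to 28 counts, and its groups overlapped (adjusted p = 0.998).

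Among the remaining alpha subunits, ITGAV, which binds RGD sequences, was at 76.8 and 73.9 CPM against 89.3 and 72.0 CPM, and the groups overlapped (log2 fold change 0.10 ± 0.14, adjusted p = 0.630). After correction for GC content and length it passed at 0.22 (adjusted p = 0.0288). ITGA9, a receptor for tenascin and osteopontin, was at 33.5 and 35.0 CPM against 36.0 and 40.8 CPM (0.17 ± 0.13, adjusted p = 0.387). ITGA8 was at 7.64 and 9.96 CPM against 14.6 and 9.33 CPM (adjusted p = 0.268). ITGA2B, ITGA4 and ITGAE had log2 fold changes of −0.16, 0.51 and 0.16 and did not pass, although the adjusted p of ITGA4 was 0.0268 after the same correction.

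**Figure D4:**
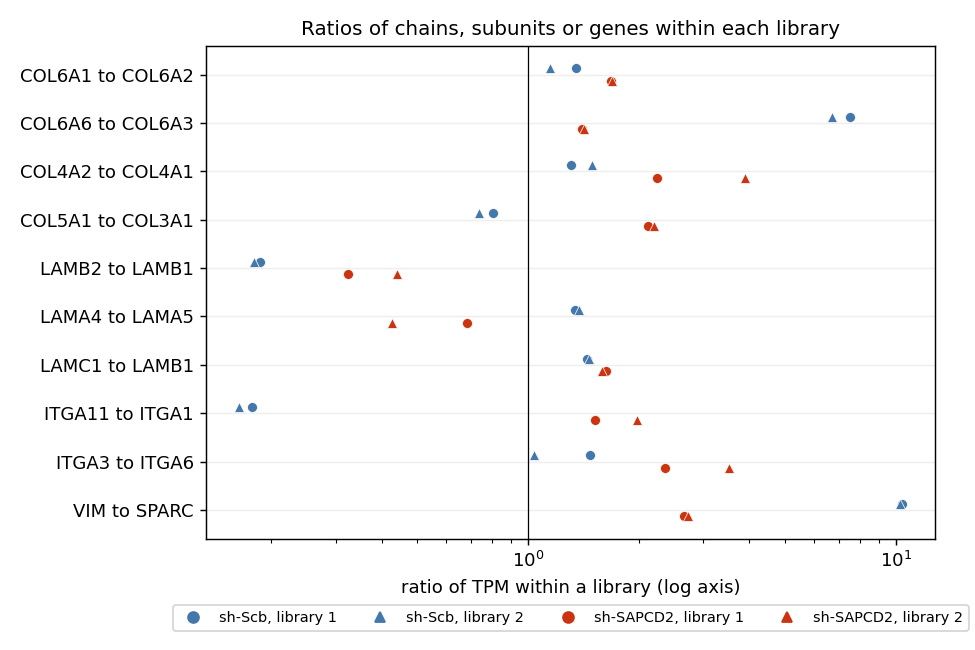
Ratio of TPM between related chains, subunits or genes within each library, on a log axis (blue, sh-Scb; red, sh-SAPCD2; circle, library 1; triangle, library 2; vertical line, equal levels). The groups do not overlap for any pair drawn, but they overlap for COL6A1 to COL6A3, which is not drawn. The ratios are not corrected for GC content. COL5A1 to COL3A1 and LAMA4 to LAMA5 cross the line of equal levels, with canonical transcript lengths as well. ITGA11 to ITGA1 crosses it too, but with canonical lengths not in the first sh-SAPCD2 library.

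The 3 genes outside these families all changed. VIM (ENSG00000026025, chromosome 10, 17228241 to 17237593, plus strand) fell from 1197 and 1179 CPM to 518 and 555 CPM, which is 2.21-fold lower (log2 fold change −1.15 ± 0.09, adjusted p = 0.00230). Of its exonic length, 24.6% overlaps other genes, its antisense gene among them. FN1 (ENSG00000115414, chromosome 2, 215360440 to 215436073, minus strand), which encodes the fibronectin bound by RGD-binding integrins, was at 45.1 and 46.3 CPM against 32.4 and 28.5 CPM (−0.59 ± 0.13, adjusted p = 0.0233). SPARC (ENSG00000113140, chromosome 5, 151661096 to 151686975, minus strand) rose from 102.9 and 102.6 CPM to 174.8 and 182.7 CPM (0.80 ± 0.10, adjusted p = 0.00469). The libraries of each group lay close together, and the ratio of VIM to SPARC per length was 10.4 and 10.3 in the control libraries and 2.66 and 2.72 in the sh-SAPCD2 libraries. None of the 3 has a GC-rich transcript, and the corrected log2 fold changes were −1.19, −0.58 and 0.87.

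Base composition was read beside these changes, with no test. The median GC content of the transcript was 60.9% (46.4 to 67.2%) for the 15 higher genes, 50.7% (45.1 to 54.3%) for the 5 lower genes and 50.3% for the 34 that did not pass. Of the 15 higher genes, 12 were higher in the second sh-SAPCD2 library than in the first, with a median ratio of 1.25. Of the 5 lower genes 3 were, with a median ratio of 1.02. Of the 34 that did not pass 16 were, with a median ratio of 0.976. The share over all tested genes was not computed. Fold changes were also read across tested genes with an annotated transcript, a mean of at least 1 CPM and counts in every library. Their median log2 fold change was −0.08 below 45% GC, 0.02 from 45 to 55%, 0.19 from 55 to 65% and 0.44 above 65%. After the correction, 13 of the 15 higher and all 5 of the lower genes still passed at an adjusted p under 0.05, and the median log2 fold change went from 1.14 to 0.87 for the higher genes and from −1.11 to −1.04 for the lower genes. The part of GC content in the changes of single genes beyond this correction was not tested.

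With 2 libraries per group, several of these calls rested on each library. In a fit without 1 library, the lone library of its group is assumed to vary like the other group. Of the 15 higher genes, 8 kept an adjusted p under 0.05 whichever library was left out, and of the 5 lower genes 4 did. Without the first control library the adjusted p was 0.0550 for COL22A1, 0.179 for COL13A1, 0.0691 for COL23A1, 0.211 for COL18A1, 0.206 for COL26A1 and 0.190 for FN1. Without the second control library it was 0.0758 for COL4A2, 0.0788 for COL22A1, 0.0561 for COL13A1, 0.137 for COL26A1, 0.0655 for LAMB2 and 0.235 for FN1. Without the second sh-SAPCD2 library, COL18A1 (0.0737) and COL26A1 (0.0857) did not pass. All of these genes kept their direction. COL5A1, COL6A1, COL6A2, COL6A3, COL27A1, ITGA3, ITGA11 and SPARC among the higher genes, and COL6A6, LAMA3, LAMA4 and VIM among the lower, passed in each of these fits. Of the named genes that had not passed, COL5A2, COL9A2, COL16A1, LAMA5, LAMB1, ITGA1 and ITGB1 passed without the first sh-SAPCD2 library. Their log2 fold changes there were from −2.16 to 1.33. COL16A1 changed direction, at −0.42 without the second sh-SAPCD2 library. Without that second library, LAMB1, ITGA4, ITGA8, ITGAV, ITGB1, ITGB3 and ITGB5 passed, from −2.08 to 0.74. ITGB8 passed without the second control library, at 2.32.

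**Figure D5:**
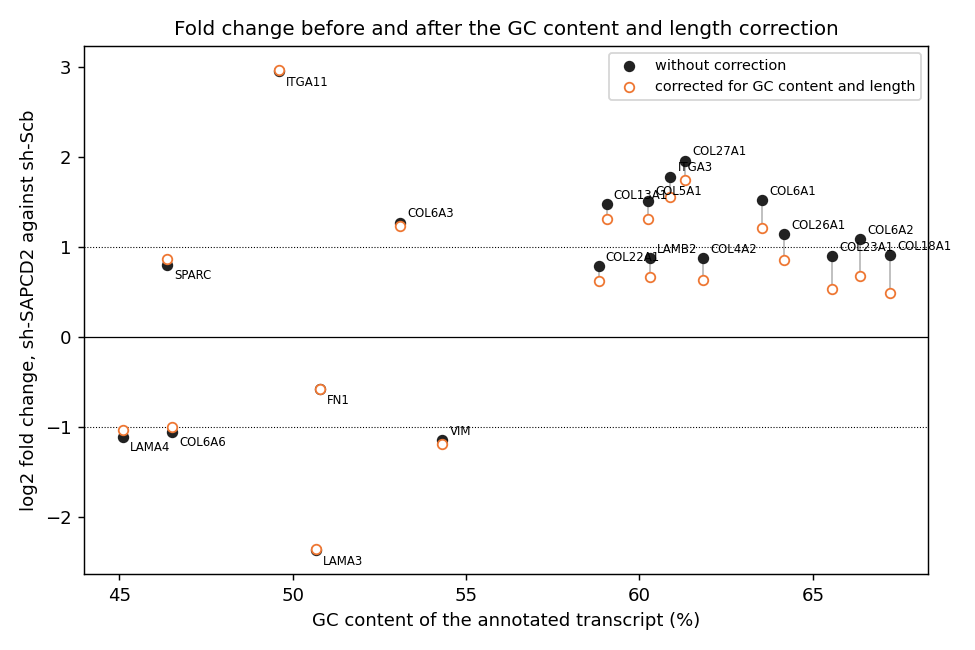
Log2 fold change (y axis) against GC content of the annotated transcript in percent (x axis) for the 20 genes with an adjusted p under 0.05, before (filled) and after (open) correction for GC content and length. The open points lie closer to 0 for the genes near 60% and above, and ITGA11, SPARC, FN1, LAMA3 and VIM hardly move.

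Collagen chains are hydroxylated and folded in the endoplasmic reticulum before they are secreted. Of 16 tested genes on a list of modifying enzymes and chaperones, 9 were higher (56.2%, against 12.4% of all tested genes) and 2 lower (12.5%, against 12.5%) at an adjusted p under 0.05, with a median log2 fold change of 0.68. P4HA2, a prolyl 4-hydroxylase subunit, went from 73 and 101 counts to 313 and 433 counts (2.05, adjusted p = 0.00378). Of the prolyl 3-hydroxylase family, P3H3 (1.83, adjusted p = 0.00322), P3H1 (1.42, adjusted p = 0.00230) and P3H4 (1.18, adjusted p = 0.00573) rose, while P3H2 fell (−0.99, adjusted p = 0.0180). PLOD3, a lysyl hydroxylase, rose by 1.20 (adjusted p = 0.00573). After correction for GC content and length, the log2 fold changes were 1.48 for P3H3, 0.97 for P3H4 and 0.95 for PLOD3. Log2 fold changes of the other genes in this list, and in the lists below, are given without that correction. Of 12 tested genes for collagen processing and cross-linking, 2 were higher (16.7%, against 12.4%) and none lower, namely PCOLCE2 (0.88, adjusted p = 0.0165) and PXDN, the peroxidase that cross-links collagen IV (0.40, adjusted p = 0.0251).

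Of 11 other tested basement membrane genes, 1 was higher (9.09%, against 12.4% of all tested genes) and 2 were lower (18.2%, against 12.5%). NID1, which links laminin to collagen IV, rose from 3777 and 3665 counts to 5522 and 6157 counts (log2 fold change 0.62, adjusted p = 0.0108), while the related NID2 fell from 49 and 28 to 6 and 13 counts (−2.06, adjusted p = 0.0317). FREM1 fell as well (−0.51, adjusted p = 0.0418). Of 22 tested genes for other integrin ligands and matricellular proteins, 5 were higher (22.7%) and 4 lower (18.2%). SPARCL1, a relative of SPARC, rose from 459 and 450 counts to 1689 and 1655 counts (1.86, adjusted p = 0.00263), TNC (tenascin-C) rose by 1.13 (adjusted p = 0.0209) and THBS2 by 1.36 (adjusted p = 0.0238), while FBN1 (fibrillin-1) was at −0.73 (adjusted p = 0.0118) and MFGE8 at −0.56 (adjusted p = 0.0237).

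Among 12 other tested matrix receptors, 3 were higher (against 12.4% of all tested genes) and 2 lower (16.7%, against 12.5%). The collagen receptor kinases parted: DDR1 rose from 110 and 121 counts to 395 and 825 counts (log2 fold change 2.32, adjusted p = 0.00474), and DDR2 was at −0.47 (adjusted p = 0.0422). CD151, a tetraspanin that binds laminin-binding integrins, rose by 1.26 (adjusted p = 0.0122), and the heparan sulfate proteoglycan SDC4 fell from 500 and 483 counts to 102 and 125 counts (−2.15, adjusted p = 0.00206), while SDC3 rose by 0.59 (adjusted p = 0.0170). Of 33 tested genes for integrin adaptors and focal adhesions, 3 were higher (FYN 0.42, FERMT3 1.79, FLNA 0.47) and 2 lower (FERMT2 −0.55, LIMS2 −2.28), which is 9.09% and 6.06%, and the median was 0.04. The other 28 did not pass.

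Of 17 tested matrix proteases and inhibitors, 7 were higher (41.2%, against 12.4% of all tested genes) and 3 lower (17.6%, against 12.5%). MMP14, the membrane-bound protease that cleaves fibrillar collagen, rose from 2888 and 2815 counts to 8000 and 12150 counts (log2 fold change 1.76, adjusted p = 0.00201). Inhibitors TIMP3 (−1.91, adjusted p = 0.00263) and TIMP2 (−0.84, adjusted p = 0.00412) fell, and MMP11 (0.97, adjusted p = 0.00595) and SERPINE2 (0.74, adjusted p = 0.00702) rose. Of 14 other tested intermediate filament genes, 7 were higher and 2 lower (14.3%). The neurofilament chains NEFH (1.11, adjusted p = 0.00313) and NEFM (0.84, adjusted p = 0.00343) and synemin, SYNM (0.78, adjusted p = 0.00581), rose while VIM fell, and the nuclear lamins LMNB2 (−1.05, adjusted p = 0.00811) and LMNB1 (−0.64, adjusted p = 0.00831) fell. Of the 52 genes that have the smallest p in these pathway lists and the marker lists below, at most 5 of each list, 26 no longer passed without the first control library and 24 without the second, and 19 no longer passed with no filter on low counts, all with the same direction.

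Marker lists were read because matrix genes are shared by several cell types. Counts of higher and lower markers stand against 12.4% and 12.5% of all tested genes, in lists of at most 12 tested genes. In bulk RNA, fewer cells of a type and less RNA per cell cannot be told apart. Of 12 tested adrenergic neuroblastoma markers, 5 fell (among them DBH −1.35, CHGB −0.83 and ISL1 −0.52 on the log2 scale) and none rose, and their summed level was 4134 and 3937 TPM in the control libraries and 3286 and 4219 TPM in the sh-SAPCD2 libraries, so the cells had abundant adrenergic markers in both groups. Of 11 tested mesenchymal markers, 2 rose (FOSL1 2.36 and FOSL2 0.61) and 2 fell (EGFR −1.70 and NOTCH2 −1.26), with PRRX1 at 0 in every library and sums of 381 and 386 TPM against 295 and 387 TPM. Fibroblast markers summed to 353 and 363 TPM against 442 and 392 TPM, with 1 of 5 higher (THY1 0.37) and 1 lower (PDGFRA −0.71), and FAP and TCF21 were at 0. Schwann cell markers summed to 17.0 and 14.9 TPM against 22.3 and 26.8 TPM, with 2 of 3 tested genes higher (PMP22 0.44 among them) and SOX10, CDH19 and FOXD3 at 0. Endothelial markers stayed near 1 TPM in sum, with 2 tested genes, of which VWF rose (3.25) and CLDN5 fell (−2.70), and ERG was at 0. Leukocyte markers summed to 3.13 and 3.44 TPM against 6.82 and 5.82 TPM, with 2 of 3 tested genes higher (CD68 2.81 and CD14 1.36) and CD3E and LYZ at 0. CD14 did not pass with DESeq2, after correction for GC content and length, with no filter on low counts, or without any 1 of the 4 libraries. CD68 did not pass with no filter on low counts, without the first sh-SAPCD2 library, or without either control library. VWF did not pass without the second sh-SAPCD2 library or either control library, and CLDN5 did not without either control library. The endothelial markers together had 41 and 38 counts in the control libraries and 42 and 54 in the sh-SAPCD2 libraries. The part of these markers in the collagen and integrin changes was not tested.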

How the data were processed

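Total RNA of 4 SK-N-BE(2) libraries was sequenced, with groups taken from the labels. Per the labels and the study's methods, the authors aligned reads to hg38 with HISAT2 2.2.0, used StringTie for abundances and deposited whole-number counts per gene, unscaled. The strand setting and the treatment of reads that match more than 1 place are not given in the sources used here, so overlapping and antisense genes cannot be told apart.

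Here, counts were scaled by TMM and tested in R 4.3.3 with the two-sided quasi-likelihood test of edgeR 4.0.16 after filterByExpr (minimum count 10, minimum total 15), which left 18779 genes, with Benjamini-Hochberg adjustment over all of them and an overall biological coefficient of variation of 15.4%. The study's methods used DESeq2, here (version 1.42.0) an alternative. CPM are TMM-scaled counts, and TPM were computed from counts and merged exon lengths of GENCODE 44, which matched 17467 of the tested genes. The correction for GC content and length was a loess fit per library (span 0.3). The floor of 3 counts covers counting error only. The steps were tested on simulated data, and tables and figures used Python 3.11.15.

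Membership of the families was set by gene symbol, but the genes described, the lists and the tests were chosen with earlier results of these data known. Named were SAPCD2, FN1, VIM, SPARC, every gene of the families with an adjusted p under 0.05, the 5 collagens, laminins and integrins with the highest level per length, chain partners, and at most 5 genes of each other list by smallest p. Other collagens, laminins and integrins of the same role, and P3H2, were named after their values were seen. Some genes of these lists are not reported here.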

Additional observations from a re-analysis of the deposited data

How the results depend on the processing

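With no filter on low counts, the SAPCD2 log2 fold change was −0.91 with an adjusted p of 0.0749, and COL4A2 (0.0920), COL13A1 (0.0634), COL18A1 (0.108), COL23A1 (0.0710), COL26A1 (0.0816) and FN1 (0.0613) no longer passed; the cause was not tested. The number of genes called higher was 15 at an adjusted p alone and ranged from 7 to 14 as each library was left out, against 9, and all 9 were among the 14 without the first sh-SAPCD2 library. The number called lower ranged from 4 to 5. The SAPCD2 log2 fold change ranged from −1.23 to −0.67 in these fits. DESeq2 called 7 higher and 4 lower, as did the GC content and length correction. Of the 52 genes with the smallest p in the pathway and marker lists, 51 still passed after that correction, and CD14 did not. DESeq2 size factors, library totals, a mean of at least 1 CPM and protein-coding genes alone each left the calls at 9 and 4. Libraries that share a replicate number did not deviate together (correlation 0.0013), and the labels do not say that they were paired. With the replicate block, 10 were called higher and 6 lower, and COL5A2, ITGB3, ITGB5 and ITGB8 passed (ITGB8 1.38, adjusted p = 4.9e-05). PXDN, PMP22 and THY1 did not pass with the block. With the block and the GC content and length correction together, 8 were higher and 5 lower. None of the named genes that passed in the main test changed direction in any of these fits. Levels per length depended on the length used, as given for ITGB1 and LAMB1, and the order of COL6A6 and COL6A3 in the sh-SAPCD2 libraries turned with it, an alternative chosen after seeing the data. The 31 genes left out by the filter had at most 28 counts in any library, and differences in them were not tested with it.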
